A study of Mus musculus with 8 samples.

Results

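Genes described as expressed in progenitors and lost in pre-CD8 dendritic cells (DCs) were followed across 3 sorted populations of mouse bone marrow: Cd34, Cd93, Egfl7, Igfbp4, Gria3, Upk1b, Cnn3, Arap2, Epb41l4b and Ctla2a. All 10 of the 10 named genes, of 19938 genes that have a probe set assigned to exactly 1 gene, were found on the array, each with 1 such probe set, and all 10 passed the filter on low signal. The genes were chosen for their signals in these same populations, so their values, and the counts of them that a fit over all genes called, are given as a description and support nothing. The populations were pre-CD8 DCs (2 arrays), Zeb2low common DC progenitors (CDPs, 3 arrays) and Zeb2hi CDPs (3 arrays). All 3 came from marrow of mice heterozygous for a Zeb2-GFP fusion reporter, in which a fluorescent tag follows the transcriptional repressor Zeb2, so every group carries the tagged allele and none is without it. The labels name neither the sort markers nor the age of the mice, and do not say whether arrays of a group came from separate animals, so spreads and p-values here measure the difference between arrays, which may be technical.

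CDPs are marrow cells that can give rise to classical and plasmacytoid DCs, and pre-CD8 DCs are marrow cells already committed to the CD8a+ kind of classical DC (cDC1). As haematopoietic progenitors commit to a lineage they shut down surface proteins and regulators of the uncommitted state, of which the sialomucin Cd34 is the best known and is widely used to sort progenitors. Cd34, the lectin-like receptor Cd93 and the secreted Egfl7 are also genes of the vascular endothelium. The order Zeb2hi CDP, Zeb2low CDP, pre-CD8 DC, taken below as 2 steps, is an assumption, because the arrays are separate sorts and follow no cell over time.

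The 10 genes did not behave as 1 group. Signals below are log2 values of the deposited intensities, and a value after ± beside a log2 difference is its standard error (SE) from a limma fit over all 8 arrays. Of the 10, 7 genes, which are Cd34, Cd93, Egfl7, Igfbp4, Gria3, Cnn3 and Arap2, were lower at each step with no overlap of arrays, so that every pre-CD8 DC array lay below every Zeb2low array and every Zeb2low array below every Zeb2hi array. Of all 13356 genes tested, 3.29% had that pattern. Upk1b kept its signal in Zeb2low CDPs and was low only in pre-CD8 DCs. Epb41l4b was highest in Zeb2low CDPs, and its pre-CD8 DC mean was 1.37-fold below that of Zeb2hi CDPs. Ctla2a was not lower in pre-CD8 DCs than in Zeb2hi CDPs, where all 3 arrays lay under their own 40th percentile.

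**Figure D1:**
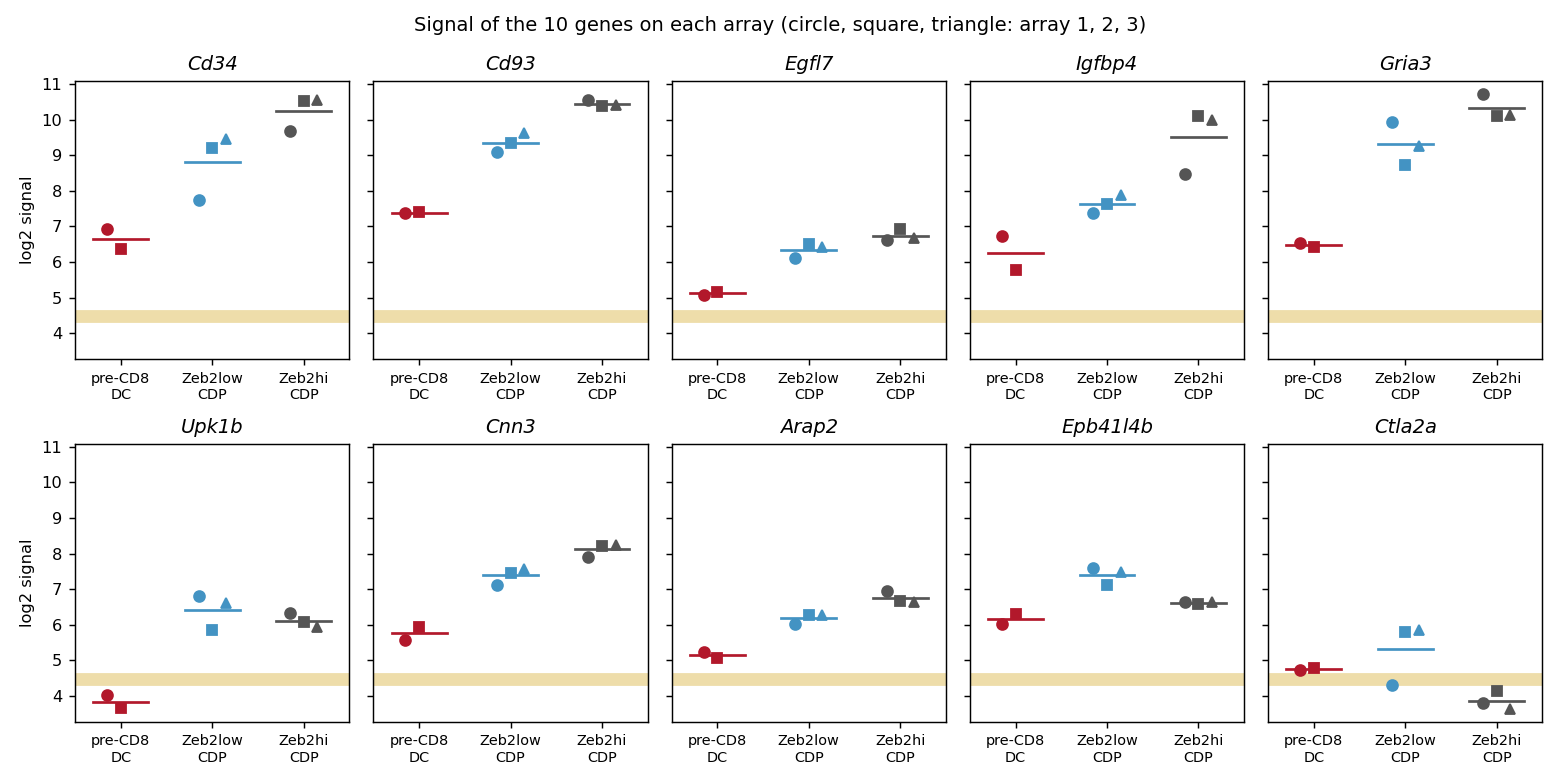
Log2 signal (vertical axis) of each of the 10 genes on every array, by group from pre-CD8 DCs on the left to Zeb2hi CDPs on the right. Lines are group means and the shaded band spans the 40th percentile of all probe sets over the 8 arrays (4.31 to 4.62). Cd34, Cd93, Egfl7, Igfbp4, Gria3, Cnn3 and Arap2 form 3 separate levels, and only Upk1b and Ctla2a have arrays in or under the band.

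The median log2 signal of the 8 arrays lay between 4.91 and 5.14. Zeb2 itself lay at 6.53 and 6.93 on the pre-CD8 DC arrays, 7.49 to 7.86 on the Zeb2low arrays and 9.05 to 9.45 on the Zeb2hi arrays, in the order of the labels. Of 10 cDC1 genes, which include Batf3, Id2, Xcr1 and Clec9a, 9 were higher and 0 lower in pre-CD8 DCs than in Zeb2hi CDPs (limma, adjusted p under 0.05). Of all genes tested 6.51% were called higher and 11.1% lower in that comparison. Flt3, the cytokine receptor that defines DC progenitors, had mean signals of 9.59, 9.38 and 9.57 in pre-CD8 DCs, Zeb2low CDPs and Zeb2hi CDPs. Other common DC progenitor genes were not level. Of 8 such genes, Flt3 among them, 2 were called higher and 2 lower in pre-CD8 DCs than in Zeb2hi CDPs. The higher ones were Csf2ra and Kit, and the lower ones Csf1r and Cx3cr1. Neutrophil genes differed in the same arrays: the summed intensity of 10 of 10 listed genes was 29155 and 54639 on the pre-CD8 DC arrays, 23273 to 47425 on the Zeb2low arrays and 10829 to 20762 on the Zeb2hi arrays, and its part in the results below was not tested. Genes of other cells moved too, in both directions. The summed intensity of 7 of 8 mast cell and basophil genes was 559 and 2159 on the pre-CD8 DC arrays, 401 to 1211 on the Zeb2low arrays and 281 to 340 on the Zeb2hi arrays. Of 5 T, NK and innate lymphoid genes tested, limma called 2 higher and 0 lower in pre-CD8 DCs than in Zeb2hi CDPs. The T cell surface protein Thy1 was 1 of the 2 (1.85 ± 0.16, adjusted p = 0.000285). Of 6 plasmacytoid DC genes tested there, Ccr9 was called higher and Cox6a2 lower. Of 5 B cell genes Cd79b was called lower and Cd79a, under the 40th percentile on 5 of 8 arrays, higher. Of 6 monocyte genes tested in the same comparison, limma called 1 lower and 1 higher, and the median difference was 0.24. The lower gene was F13a1, which encodes a subunit of coagulation factor XIII (-3.79 ± 0.53, adjusted p = 0.00264). F13a1 had signals of 7.91 and 5.58 on the pre-CD8 DC arrays. On the Zeb2low arrays they were 7.90, 8.10 and 8.19, and on the Zeb2hi arrays 10.61, 10.52 and 10.48. The higher gene was Itgam (2.71, adjusted p = 0.0197), which did not pass in the limma fit blocked by array number (adjusted p = 0.069). The part of these genes in the results was not tested. In these bulk samples a smaller share of cells that express a gene and less RNA per cell cannot be told apart.

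Promoter sequence was available from RefSeq (build GRCm38.p6, 250 bases before to 50 after a transcript start) for 7 of the 10 genes, with 10 starts in all. Most of the genes moved in the direction of Zeb2 across the groups, and whether Zeb2 acts on any of them was not tested. The zinc fingers of Zeb2 recognise the E-box CAGGTG, a sequence that E proteins also bind. Read on both strands, CAGGTG was found in 2 of the 10 promoters, those of Arap2 (3 matches) and of the third start of Egfl7 (1 match), and in 20.2% of 32851 promoters of the same length. The ETS core CCGGAA was found in 1 (Arap2, against 14.9% of all promoters), the GATA site AGATAA in 1 (the distal start of Ctla2a, against 11.2%) and the Runx site TGTGGT in 0 (against 16.8%). None of these motifs overlapped another in the Arap2 promoter. The 10 promoters held between 4 and 58 CpG dinucleotides, with a median of 17.5, against a median of 7 over all promoters. Those of Epb41l4b (58), Arap2 (47), Cnn3 (33), the third start of Egfl7 (31) and Igfbp4 (27) were rich in CpG, and those of Cd34 (7) and Ctla2a (4 and 5) were not. A match is only a match of letters, and no match says nothing about binding elsewhere. The Arap2 window is chr5:62766128-62766427 on the minus strand, that of Egfl7 chr2:26586386-26586685 on the plus strand, and that of Cd34, which held none of the 4 motifs, chr1:194938571-194938870 on the plus strand. Capitals mark CAGGTG or its reverse complement, and in Arap2 also the ETS core.
Arap2: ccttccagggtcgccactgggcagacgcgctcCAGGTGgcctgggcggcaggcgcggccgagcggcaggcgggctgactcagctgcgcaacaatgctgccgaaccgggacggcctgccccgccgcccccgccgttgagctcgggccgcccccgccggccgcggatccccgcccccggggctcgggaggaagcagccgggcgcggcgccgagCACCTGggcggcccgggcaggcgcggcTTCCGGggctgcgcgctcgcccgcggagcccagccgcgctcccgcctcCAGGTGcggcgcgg
Egfl7: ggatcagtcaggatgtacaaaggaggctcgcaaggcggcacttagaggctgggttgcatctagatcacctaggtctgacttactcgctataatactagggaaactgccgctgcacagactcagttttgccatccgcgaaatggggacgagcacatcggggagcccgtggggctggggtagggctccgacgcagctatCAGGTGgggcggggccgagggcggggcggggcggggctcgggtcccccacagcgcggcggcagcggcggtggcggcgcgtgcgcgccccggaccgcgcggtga
Cd34: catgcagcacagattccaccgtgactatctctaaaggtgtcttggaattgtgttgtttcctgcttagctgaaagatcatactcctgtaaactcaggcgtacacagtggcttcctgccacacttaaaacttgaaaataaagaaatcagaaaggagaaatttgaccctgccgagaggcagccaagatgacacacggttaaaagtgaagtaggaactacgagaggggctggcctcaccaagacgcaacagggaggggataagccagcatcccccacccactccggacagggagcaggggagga

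Among the surface proteins Cd34 had log2 signals of 6.93 and 6.38 on the pre-CD8 DC arrays, 7.75, 9.20 and 9.45 on the Zeb2low arrays and 9.67, 10.53 and 10.54 on the Zeb2hi arrays. The groups did not overlap, but array 1 was the lowest of its group in both CDP populations, and Zeb2low array 1 lay closer to the pre-CD8 DC arrays than the others. The log2 difference was -2.14 ± 0.49 for pre-CD8 DCs against Zeb2low CDPs, -1.45 ± 0.44 for Zeb2low against Zeb2hi CDPs and -3.59 ± 0.49 for pre-CD8 DCs against Zeb2hi CDPs. On the linear scale 8.30% of the Zeb2hi signal was left in pre-CD8 DCs.

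Cd93, a transmembrane glycoprotein of early haematopoietic cells with a C-type lectin-like domain, had the tightest levels of the surface genes. Its signals were 7.38 and 7.40 on the pre-CD8 DC arrays, 9.10, 9.34 and 9.63 on the Zeb2low arrays and 10.56, 10.39 and 10.41 on the Zeb2hi arrays. Each group formed a level of its own, with no overlap. Pre-CD8 DCs differed from Zeb2low CDPs by -1.97 ± 0.18, and Zeb2low from Zeb2hi CDPs by -1.10 ± 0.16.

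Gria3 encodes a subunit of the AMPA-type glutamate receptor, an ion channel known from neurons. It had signals of 6.53 and 6.43 on the pre-CD8 DC arrays, 9.93, 8.73 and 9.26 on the Zeb2low arrays and 10.73, 10.09 and 10.14 on the Zeb2hi arrays. Both pre-CD8 DC arrays lay far below every CDP array, while the highest Zeb2low array came within a small margin of the lowest Zeb2hi array. Its difference between pre-CD8 DCs and Zeb2low CDPs, -2.83 ± 0.33 or 7.11-fold, ranked 1 of 13356 genes from the most negative. Against Zeb2hi CDPs the pre-CD8 DC signal was 14.4-fold lower (-3.84 ± 0.33), the largest fold among the 10 genes.

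Upk1b, a tetraspanin of the urothelial plaque, followed another course. Its signals were 4.03 and 3.65 on the pre-CD8 DC arrays, 6.80, 5.85 and 6.61 on the Zeb2low arrays and 6.32, 6.09 and 5.93 on the Zeb2hi arrays. The CDP fractions overlapped, with a difference of 0.31 ± 0.25 for Zeb2low against Zeb2hi CDPs. With the pre-CD8 DC arrays set at their 40th percentiles, the signal was at least 3.93-fold lower in pre-CD8 DCs than in Zeb2low CDPs (measured means 3.84 and 6.42). Upk1b was the sole gene of the 10 whose signal was under the array's own 40th percentile on both pre-CD8 DC arrays and on no CDP array. The robust multi-array average behind these values gives no detection call, so the other genes are described as lower, not as absent, in pre-CD8 DCs.

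Of the secreted proteins, Igfbp4, which binds insulin-like growth factors, had signals of 6.74 and 5.78 on the pre-CD8 DC arrays, 7.39, 7.62 and 7.89 on the Zeb2low arrays and 8.48, 10.10 and 9.98 on the Zeb2hi arrays. Zeb2hi array 1 stood apart from the other Zeb2hi arrays, and pre-CD8 DC array 1 from array 2, without overlap between groups. Igfbp4 was the sole gene among the 10 with a larger fall in the first step (-1.89 ± 0.43 for Zeb2low against Zeb2hi CDPs) than in the second (-1.37 ± 0.48 for pre-CD8 DCs against Zeb2low CDPs). In pre-CD8 DCs 10.4% of the Zeb2hi signal was left.

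Egfl7, an EGF-like protein secreted by endothelial and progenitor cells, had signals of 5.08 and 5.17 on the pre-CD8 DC arrays, 6.12, 6.52 and 6.41 on the Zeb2low arrays and 6.62, 6.94 and 6.67 on the Zeb2hi arrays. The CDP fractions were separated by a narrow gap (-0.39 ± 0.16 for Zeb2low against Zeb2hi CDPs) and the pre-CD8 DC arrays by a wider one (-1.23 ± 0.18 against Zeb2low CDPs). Egfl7 is the host gene of miR-126. The probe set annotated to Mir126a, looked up after the other values were seen, was under the 40th percentile on all 8 arrays, so it gave no level to set beside that of the host.

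Ctla2a encodes a small inhibitor of cathepsin L-like proteases that resembles a protease propeptide. Its signals were 4.73 and 4.79 on the pre-CD8 DC arrays, 4.30, 5.79 and 5.85 on the Zeb2low arrays and 3.79, 4.15 and 3.63 on the Zeb2hi arrays. The pre-CD8 DC arrays lay between the Zeb2low arrays, above array 1 and below arrays 2 and 3, and above all Zeb2hi arrays. Ctla2a was under the 40th percentile on 4 arrays, 3 of them Zeb2hi and 1 Zeb2low, so folds against Zeb2hi CDPs are not exact. With the Zeb2hi arrays set at their 40th percentiles, Ctla2a was at least 1.33-fold higher in pre-CD8 DCs than in Zeb2hi CDPs. In Zeb2low CDPs it was 1.96-fold higher on that reckoning (measured means 4.76, 5.31 and 3.86). The 1.96-fold is no strict bound, because Zeb2low array 1 (4.30) was itself under its 40th percentile (4.62). Pre-CD8 DCs differed from Zeb2low CDPs by -0.55 ± 0.42. Its close paralog Ctla2b had signals of 4.29 to 4.76 over all arrays and was under the 40th percentile on 3 of them; how far the probes of such near copies also bind the transcript of the other was not tested.

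The intracellular genes include Cnn3, an actin-binding calponin, with signals of 5.58 and 5.95 on the pre-CD8 DC arrays, 7.13, 7.45 and 7.57 on the Zeb2low arrays and 7.91, 8.21 and 8.25 on the Zeb2hi arrays. Its 3 levels were well apart, with a difference of -1.62 ± 0.20 between pre-CD8 DCs and Zeb2low CDPs, and of -0.74 ± 0.18 between Zeb2low and Zeb2hi CDPs. Arap2, a GTPase-activating protein for the small GTPase Arf6, had signals of 5.24 and 5.07 on the pre-CD8 DC arrays, 6.02, 6.28 and 6.26 on the Zeb2low arrays and 6.96, 6.68 and 6.63 on the Zeb2hi arrays. It also had 3 levels, with the smaller differences of -1.03 ± 0.17 and -0.58 ± 0.15 for the same comparisons.

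Epb41l4b, a FERM-domain protein of the band 4.1 family that links membranes to the cytoskeleton, had signals of 6.03 and 6.29 on the pre-CD8 DC arrays, 7.60, 7.13 and 7.47 on the Zeb2low arrays and 6.63, 6.59 and 6.63 on the Zeb2hi arrays. All Zeb2low arrays were above all others. The difference was -1.24 ± 0.18 for pre-CD8 DCs against Zeb2low CDPs, 0.78 ± 0.16 for Zeb2low against Zeb2hi CDPs and -0.46 ± 0.18 for pre-CD8 DCs against Zeb2hi CDPs. The 2 pre-CD8 DC arrays lay below the 3 Zeb2hi arrays by a narrow margin.

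The step in which each gene was lost was described by the share of the total fall, from the Zeb2hi to the pre-CD8 DC mean, that lay in each step. In the second step, between Zeb2low CDPs and pre-CD8 DCs, 5 genes had over 66.7% of it. They were Egfl7 (75.7%), Gria3 (73.6%), Cnn3 (68.7%), Upk1b (113%) and Epb41l4b (272%). The means of the last 2 were higher in Zeb2low than in Zeb2hi CDPs, for Upk1b by 0.31 ± 0.25 with overlapping arrays. The total fall of Epb41l4b was only 0.46 on the log2 scale and was not called. The fall of 4 genes was divided over both steps, with a second-step share of 59.7% for Cd34, 64.2% for Cd93 and for Arap2, and 42.1% for Igfbp4. The first step held over 66.7% of the fall for 0 genes, and Ctla2a had no fall to divide. Cnn3, Cd93 and Arap2 lie close to the border between these classes, which they crossed in 4, 3 and 4 of 19 settings, and Gria3 crossed it without Zeb2low array 1 (65.5%). The 19 include the main fit itself. They also include other filters, averaged probe sets and unblocked fits of only the 2 groups, which leave these shares unchanged by construction. Cd34 rests on Zeb2low array 1, since 74.3% of its fall lay in the second step without that array, and Igfbp4 on pre-CD8 DC array 2, since 32.1% lay there without it.

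**Figure D2:**
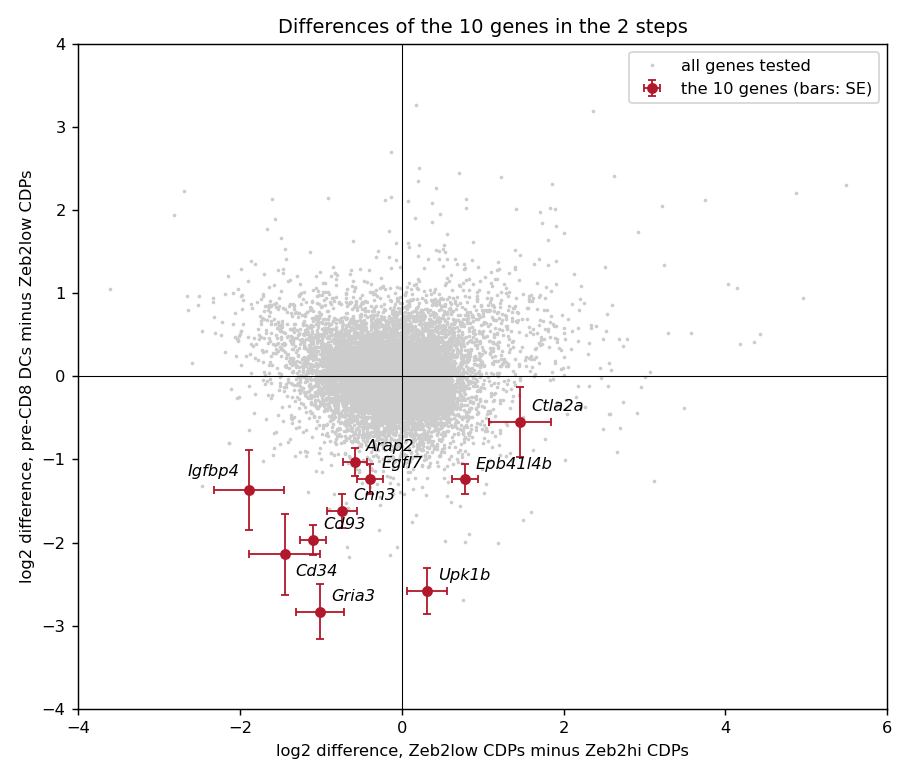
Log2 differences of the first step (Zeb2low minus Zeb2hi CDPs, horizontal axis) and of the second step (pre-CD8 DCs minus Zeb2low CDPs, vertical axis). Red points are the 10 genes with SE bars and grey points all 13356 genes tested. Cd34, Cd93, Egfl7, Igfbp4, Gria3, Cnn3 and Arap2 lie below 0 on both axes, whereas Upk1b, Epb41l4b and Ctla2a lie below 0 on the vertical axis alone. Zeb2low arrays enter both axes.

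Counts of calls set these values against all genes. Because the genes were chosen on the same arrays, the counts are a description. Against Zeb2low CDPs, 7 of the 10 genes were lower in pre-CD8 DCs at an adjusted p under 0.05, all but Cd34, Igfbp4 and Ctla2a, where 0.217% of all genes tested were called lower and 0.337% higher, or 0.554% in either direction. Arrays did not overlap for 9 of the 10, all lower in pre-CD8 DCs, where this held for 15.4% of all genes in that direction and for 12.4% in the other. The median difference was -1.50 over the 10 genes and -0.03 over all genes. Without pre-CD8 DC array 1 or Zeb2low array 3, 2 of the 10 were called, and with the replicate number as a block 4 were. Leaving out Zeb2low array 2, Zeb2hi array 2 or Zeb2hi array 3 gave 4 each.

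Between Zeb2low and Zeb2hi CDPs 4 of the 10 genes were called lower (Cd93, Igfbp4, Cnn3 and Arap2), where 10.3% of all genes were, and 2 were called higher (Epb41l4b and Ctla2a), where 4.50% of all genes were, so that 14.8% of all genes were called in either direction. The arrays of 7 genes lay without overlap below and those of 2 above, where 21.5% and 20.2% of all genes did. The median difference was -0.66 over the 10 genes and 0.03 over all genes. Cd93 alone was called lower without Zeb2low array 2, Zeb2low array 3, Zeb2hi array 2 or Zeb2hi array 3, and without Zeb2low array 1 or after quantile normalization 2 were. Of the higher calls, Epb41l4b was lost without Zeb2low array 3 or Zeb2hi array 2 or 3, and Ctla2a without Zeb2low array 2 or 3 or any Zeb2hi array, and also after quantile normalization, after median centring and with an offset of 16. In the fit of all arrays blocked by number, 4 genes were again called lower, with Gria3 in place of Arap2, and with the block and only the CDP arrays 6 were, Cd34 and Gria3 added. The same 6 were called with array weights, after median centring and with the filter at the 60th percentile. For same-numbered CDP arrays, which deviated together, 7 genes were lower in the Zeb2low array of all 3 numbers and 2 were higher in all 3. The differences for numbers 1, 2 and 3 were -1.92, -1.33 and -1.10 for Cd34 and 0.51, 1.65 and 2.21 for Ctla2a.

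In pre-CD8 DCs against Zeb2hi CDPs 8 of the 10 genes were called lower, all but Epb41l4b and Ctla2a, where 11.1% of all genes were, and 17.6% were called in either direction. Arrays did not overlap for 9 lower genes and 1 higher, where 27.1% and 21.4% of all genes had that pattern. The median difference was -2.31 over the 10 genes and -0.02 over all genes. The 8 calls were made in each of the 8 fits that left out 1 array. This comparison shares its arrays with the other comparisons, so the 3 sets of values are not independent.

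Over the 8 arrays the 7 genes with 3 levels ran close together, with Pearson correlations of 0.79 to 0.99 in their 21 pairs. Upk1b and Epb41l4b correlated at 0.80. The correlation of a gene with the mean of the other 9 was 0.97 for Egfl7, 0.96 for Cnn3, 0.50 for Epb41l4b and -0.25 for Ctla2a. These values describe 8 arrays in 3 groups and rise with any difference between the groups. Outside the 10 genes, those with the profile most like the mean of the 10 over the 8 arrays were Chek1 (r = 0.988), Lig1 (0.981), Ccnd2 (0.977), Ssbp2 (0.976), Spata24 (0.973) and Gcfc2 (0.972). Most of their difference lay in the second step, as for Ccnd2, with mean signals of 7.94, 10.00 and 10.06 in pre-CD8 DCs, Zeb2low CDPs and Zeb2hi CDPs. The mean profile includes Upk1b, Epb41l4b and Ctla2a, whose mean signals were higher in Zeb2low than in Zeb2hi CDPs. Their rise offsets the first-step fall of the other 7 genes, so a small first step in the matches is in part built in. The 3 genes most like Ctla2a were Ttc36 (r = 0.982), Arsi (0.970) and Gm12359 (0.969), all with differences under that of Ctla2a.

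Of 59 listed relatives and partners of the 10 genes 42 passed the filter. In pre-CD8 DCs against Zeb2hi CDPs 5 were higher and 1 lower, where 6.51% of all genes were called higher and 11.1% lower, with a median difference of 0.22. Between Zeb2low and Zeb2hi CDPs 1 was higher and 1 lower, where 4.50% and 10.3% of all genes were. The median difference was 0.24 over the relatives and 0.03 over all genes. At an unadjusted p under 0.05 by limma 28.6% of the relatives were higher and 7.14% lower there, where 13.2% and 19.6% of all genes were. In pre-CD8 DCs against Zeb2hi CDPs these shares were 21.4% and 4.76%, where 12.2% and 19.6% of all genes were. Against Zeb2low CDPs 0 passed in either direction by limma, with 4 higher (9.52%) and 2 lower (4.76%) at an unadjusted p under 0.05, where 6.23% and 6.96% of all genes were. In the AMPA receptor family Gria1, Gria2 and Gria4 were each under the array's 40th percentile on all 8 arrays, which leaves Gria3 as the sole subunit with a signal above it. Cnih1, whose family members escort AMPA receptors and other cargo out of the endoplasmic reticulum, was lower in pre-CD8 DCs than in Zeb2hi CDPs (-0.87 ± 0.18, adjusted p = 0.0135) and was not past the test without pre-CD8 DC array 1, Zeb2hi array 2 or Zeb2hi array 3 (highest adjusted p = 0.0721).

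Among relatives of the secreted proteins the calls were all of higher genes. Egfl8, the paralog of Egfl7, was higher in Zeb2low than in Zeb2hi CDPs (0.92 ± 0.18, adjusted p = 0.0141), though not past the test without Zeb2hi array 2 or 3 (highest adjusted p = 0.0692). Notch2, a receptor of the pathway that Egfl7 is reported to modulate, had signals of 9.75 and 9.44 on the pre-CD8 DC arrays, against 7.82, 8.16 and 8.37 on the Zeb2hi arrays. All pre-CD8 DC arrays were above all Zeb2hi arrays, and Notch2 rose by 1.48 ± 0.26 (adjusted p = 0.0067). Notch4 was also higher there (0.81 ± 0.16, adjusted p = 0.00964), except without pre-CD8 DC array 1 (adjusted p = 0.057).

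In the insulin-like growth factor axis 3 of 10 tested relatives of Igfbp4 were higher in pre-CD8 DCs than in Zeb2hi CDPs and 0 were lower, where 6.51% and 11.1% of all genes were called. Irs2, the adaptor of the insulin and IGF receptors, was higher by 1.16 ± 0.25 (adjusted p = 0.0145), but not past the test without pre-CD8 DC array 1 (adjusted p = 0.0849). The calls of Igf2r (0.97 ± 0.24, adjusted p = 0.0263) and Igf1 (0.94 ± 0.27, adjusted p = 0.046) held in 5 and 3 of 8 fits without 1 array, were absent without pre-CD8 DC array 1, Zeb2hi array 2 or Zeb2hi array 3, and for Igf1 also without Zeb2low array 3 or Zeb2hi array 1. With the replicate number as a block neither passed (adjusted p = 0.0725 and 0.128). Igf2r was under the array's own 40th percentile on 4 of 8 arrays, among them every Zeb2hi array.

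Of the other families, Rhoa was the sole gene called. Cnn2, a calponin of leukocytes and other non-muscle cells, had mean signals of 9.61 in pre-CD8 DCs and 8.33 in Zeb2hi CDPs, a difference of 1.28 ± 0.47 that did not pass (adjusted p = 0.097). Rhoa, a GTPase that Arap proteins bind, was lower in Zeb2low than in Zeb2hi CDPs (-0.65 ± 0.18, adjusted p = 0.0457), and was past the test in 2 of 8 fits without 1 array, those without a pre-CD8 DC array. With a block its adjusted p was 0.0752. Relatives of Upk1b, Epb41l4b, Cd93 and Ctla2a gave 0 calls by limma in the 3 comparisons. At an unadjusted p under 0.05 Ctss, Epb41l3 and Thbd were among them. Podxl and Podxl2, the sialomucins related to Cd34, were each under the 40th percentile on 7 of 8 arrays and were not tested.

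Other haematopoietic progenitor genes, a list that holds none of the 10, were in part lower too. Of 26 listed genes 19 were tested. In pre-CD8 DCs against Zeb2hi CDPs 8 were lower and 1 was higher, with a median difference of -0.70, where 11.1% of all genes were called lower and 6.51% higher. Adgrl4, an adhesion receptor of progenitors and endothelium, had signals of 5.71 and 5.18 on the pre-CD8 DC arrays and 8.02, 8.06 and 7.95 on the Zeb2hi arrays. The groups did not overlap, and it fell by 2.56 ± 0.30 on the log2 scale (adjusted p = 0.0012). Sox4, a transcription factor of immature cells (-2.29 ± 0.45, adjusted p = 0.0101), Cd27, a TNF receptor family member (-2.25 ± 0.33, adjusted p = 0.00316), and Muc13, a mucin (-1.60 ± 0.24, adjusted p = 0.00371), fell too. Without pre-CD8 DC array 1 the call of Sox4 was lost (adjusted p = 0.0582). Erg, Myb, Meis1 and Hoxa9, transcription factors of stem and progenitor cells, were lower by 1.09 to 1.49 on the log2 scale.

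Kit, the stem cell factor receptor, went the opposite way. Its signals were 8.72 and 9.07 on the pre-CD8 DC arrays and 7.34, 8.13 and 8.14 on the Zeb2hi arrays, with no overlap. It rose by 1.02 ± 0.26 (adjusted p = 0.0295), a call that was lost without pre-CD8 DC array 1 or 2 (highest adjusted p = 0.134). Flt3 differed by 0.01 ± 0.18 (adjusted p = 0.967).

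The steps of these genes can be set beside those of the 10. Between Zeb2low and Zeb2hi CDPs the median difference was -0.20 over the 19 genes and 0.03 over all genes. At an unadjusted p under 0.05 by limma 26.3% of the 19 were lower and 15.8% higher, where 19.6% and 13.2% of all genes were. After adjustment 10.3% of all genes were called lower and 4.50% higher. Of the 19, 5 were lower, Adgrl4 (-1.16 ± 0.26, adjusted p = 0.0226), Lmo2 (-1.10 ± 0.24, adjusted p = 0.021), Muc13 (-0.92 ± 0.22, adjusted p = 0.0258), Meis1 (-0.85 ± 0.14, adjusted p = 0.00756) and Erg (-0.83 ± 0.22, adjusted p = 0.0393), and Cd48 (0.99 ± 0.23, adjusted p = 0.0231) and Procr (0.61 ± 0.17, adjusted p = 0.048) were higher. Meis1 passed in all 8 fits without 1 array and the others in 2 to 6. Lmo2 was lost without Zeb2low array 1 or 3 or Zeb2hi array 2 or 3, Adgrl4 without Zeb2hi array 2 or 3, Muc13 without Zeb2low array 1 or 2 or Zeb2hi array 3, and Cd48 without Zeb2low array 1 or 3 or Zeb2hi array 2 or 3 (highest adjusted p = 0.0959). Erg was lost without any 1 of the 6 CDP arrays (highest adjusted p = 0.0989), and Procr without any Zeb2low array or Zeb2hi array 2 or 3 (highest adjusted p = 0.17). With the replicate number as a block 4 of the 7 calls were made, without Erg (adjusted p = 0.0811), Cd48 (adjusted p = 0.0545) and Procr (adjusted p = 0.0811). Procr was under the array's own 40th percentile on 6 of 8 arrays, among them every Zeb2hi array, so its difference is one of signals near the floor.

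In pre-CD8 DCs against Zeb2low CDPs 0 of the 19 passed limma's test, with 10 lower (52.6%) and 1 higher (5.26%) at an unadjusted p under 0.05, where 930 of all genes (6.96%) were lower and 832 (6.23%) higher. The median difference was -0.66 over the 19 genes and -0.03 over all genes. Without Zeb2low array 1, 3 of them passed, and without pre-CD8 DC array 2, 1 did. Sox4 had signals of 5.12 and 5.33 on the pre-CD8 DC arrays, against 6.43, 7.73 and 7.94 on the Zeb2low arrays, a difference of -2.14 ± 0.45 (adjusted p = 0.0899). Cd27 differed by -1.59 ± 0.33 (adjusted p = 0.0899) and Myb by -1.05 ± 0.21 (adjusted p = 0.0876).

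**Figure D3:**
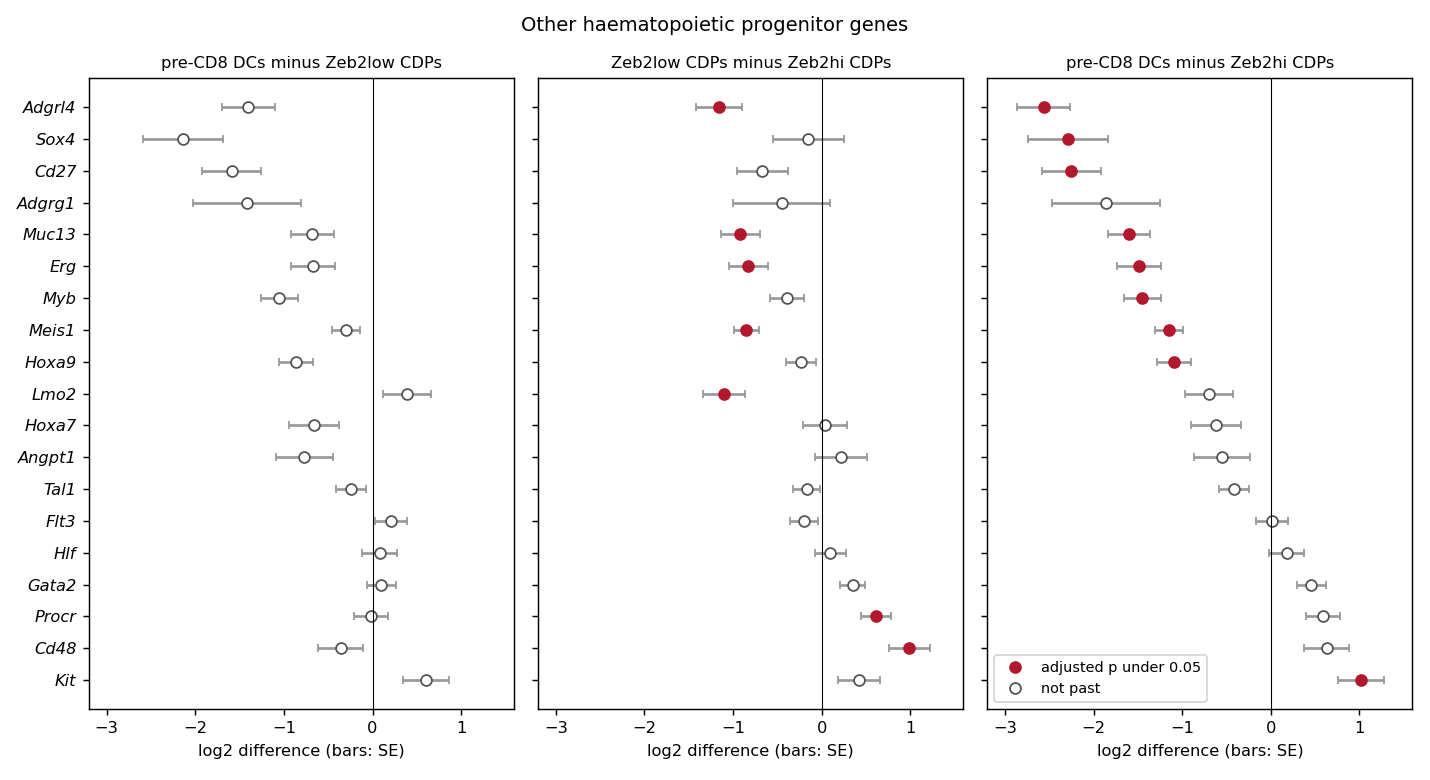
Log2 differences (horizontal axes, bars are SE) of the 19 other haematopoietic progenitor genes tested, in pre-CD8 DCs minus Zeb2low CDPs, Zeb2low minus Zeb2hi CDPs and pre-CD8 DCs minus Zeb2hi CDPs from left to right. Filled points passed limma's test at an adjusted p under 0.05. Adgrl4, Sox4 and Cd27 have the lowest values on the right, where Kit is the sole gene past the test above 0.

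Markers of the other cells that use these genes were set beside them. Of 17 endothelial genes 7 were under the 40th percentile on all 8 arrays, among them the defining Cdh5, Kdr, Tek and Emcn. The summed intensity of the 17 was 435 and 544 on the pre-CD8 DC arrays, 593 to 726 on the Zeb2low arrays and 722 to 793 on the Zeb2hi arrays. Pecam1 and Eng had the highest mean log2 signals of the list in Zeb2hi CDPs (8.32 and 7.15) and weigh most in those sums. Their means in pre-CD8 DCs were 6.83 and 5.21. Over the 9 endothelial genes tested the median difference of pre-CD8 DCs against Zeb2hi CDPs was -0.04, where it was -0.02 over all genes. The endothelial genes that passed in pre-CD8 DCs against Zeb2hi CDPs were Vwf (1.12 ± 0.15, adjusted p = 0.00247), which was higher, and Pecam1 (-1.48 ± 0.24, adjusted p = 0.00458) and Eng (-1.94 ± 0.55, adjusted p = 0.0427), which were lower. Eng passed in 3 of 8 fits without 1 array, and was lost without either pre-CD8 DC array, Zeb2low array 2, Zeb2hi array 2 or Zeb2hi array 3 (highest adjusted p = 0.192). Between Zeb2low and Zeb2hi CDPs Vwf was the sole one past the test (0.51 ± 0.14, adjusted p = 0.0382, and 0.0801 with a block), in 4 of 8 fits without 1 array, being lost without Zeb2low array 2 or 3 or Zeb2hi array 2 or 3. Of 7 marrow stromal genes Cxcl12, Lepr, Dcn and Lum were under the 40th percentile on all 8 arrays. The summed intensity of the 7 was 141 and 170 on the pre-CD8 DC arrays, 163 to 181 on the Zeb2low arrays and 188 to 191 on the Zeb2hi arrays. Of the 3 tested, Pdgfrb, a growth factor receptor of stromal cells, was lower in pre-CD8 DCs than in Zeb2hi CDPs (-1.36 ± 0.18, adjusted p = 0.00236) and lower in Zeb2low than in Zeb2hi CDPs (-0.85 ± 0.16, adjusted p = 0.0137, lost without Zeb2hi array 2 or 3, highest adjusted p = 0.0675). Its mean signals were 4.73 in pre-CD8 DCs, 5.24 in Zeb2low CDPs and 6.09 in Zeb2hi CDPs, an order it shared with the 7 genes of 3 levels, and its part in the results was not tested.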

How the data were processed

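Arrays of 3 populations sorted by flow cytometry were grouped by their titles. RNA was amplified with a whole-transcriptome kit for small amounts, per the labels' protocols. The intensity of each probe set was deposited by the authors on a linear scale; the submitters' processing notes name Affymetrix Expression Console and RMA (robust multi-array average). Their versions and the genome build were not given in the sources used here.

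Of 28853 probe sets, 21789 are annotated to 1 gene, 1621 to several and 5443 to none that was used here. The deposited intensities were turned into log2 values. A probe set was kept if it exceeded the 40th percentile of an array on 2 or more of the 8, and the one of highest mean stood for its gene, which left 13356 genes. A linear model over all 8 arrays was fitted in limma 3.58.1 under R 4.3.3, with moderated two-sided tests (5 residual degrees of freedom), with Benjamini-Hochberg adjustment within each comparison at 0.05. The fit was tested on simulated data. Precision is limited by how few arrays each group has.

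The 10 genes, the gene lists and the rule for named genes (all 10, relatives past the test and Ctla2b, up to 4 other progenitor and up to 4 endothelial genes past the test per comparison and direction by size, the 6 genes most alike the mean profile and the 3 most alike Ctla2a) were chosen with earlier results of these data known. Other genes are named to account for counts or as values that did not pass, after their values were seen, and the motifs and the bounds at the 40th percentile were chosen after the values were seen. Same-numbered Zeb2low and Zeb2hi arrays deviated together across genes (r = 0.478, 0.407 and 0.308), whereas pre-CD8 DC arrays did not follow their numbers (r = -0.401 and -0.587 with Zeb2low arrays 1 and 2), so the numbers were taken to pair the CDP arrays; the pairing comes from the values, not the labels. The 2 pre-CD8 DC arrays deviate from their mean as mirror images, so their 2 r values rest on 1 set of deviations and are not independent. Alternatives were other filters, normalizations, an offset, array weights, averaged probe sets, a block, fits of 2 groups and leaving out each array.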

Additional observations from a re-analysis of the deposited data

How the results depend on the processing

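Every one of the 10 genes kept the direction of its difference between pre-CD8 DCs and Zeb2low CDPs in all settings, and 529 of 540 recomputed differences moved by less than the spread between arrays; the 11 others came from an offset of 16, which by construction shrinks differences of low signals, and from quantile normalization or median centring. Part of the 529 could not move. Other filters, averaged probe sets and unblocked fits of only the 2 groups compared leave the differences of these genes unchanged by construction. The same holds for leaving out an array of the group not compared. Counts of calls depended more on the setting, and the cause was not tested. For pre-CD8 DCs against Zeb2low CDPs all calls numbered 74, against 15 with the replicate block, 16 with only the 2 groups compared, 0 with both (272 higher and 200 lower at an unadjusted p under 0.05 by limma) and 21 to 147 without 1 array. The genes called lower among the 10 numbered 7, against 4, 1 and 0 in the same settings (9 of 10 lower at an unadjusted p under 0.05 in the last) and 2 to 6 without 1 array. For Zeb2low against Zeb2hi CDPs there were 1978 calls, against 4467 with array weights, 4070 with the replicate block and only the 2 groups compared, and 521 to 2224 without 1 array; of the 10 genes 4 were called lower, against 2 after quantile normalization, 6 with the filter at the 60th percentile, median centring, array weights or the replicate block with only the 2 groups compared, and 1 to 4 without 1 array. Calls were lower genes in 69.6% of cases, against 85.8% after median centring, which moved the median of all genes to -0.14, and 59.1% after quantile normalization. For pre-CD8 DCs against Zeb2hi CDPs there were 2352 calls, against 196 with the replicate block and only the 2 groups compared, and 1172 to 2775 without 1 array; of the 10 genes 8 were called lower, against 5 in that block fit. The share of lower genes among calls was 39.2% in pre-CD8 DCs against Zeb2low CDPs, against 27.7% after median centring. Of the other progenitor genes 0 were called in pre-CD8 DCs against Zeb2low CDPs, against 1 after quantile normalization, 3 with array weights and 0 to 3 without 1 array. In Zeb2low against Zeb2hi CDPs there were 7, against 4 with the replicate block and 1 to 7 without 1 array, and in pre-CD8 DCs against Zeb2hi CDPs 9, against 3 with the block and only the 2 groups compared and 7 to 11 without 1 array. Genes lost mainly in the second step numbered 5, and 4 to 7 in other settings, also without 1 array. A group left with 1 array is assumed to vary like the others.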
